A study of Mus musculus with 9 samples.

Results

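Of 54 genes for collagen chains and for proteins that process collagen, measured in whole mouse hearts, 3 processing or associated genes were called. None of the 42 collagen chains was called in any comparison. Pcolce, the enhancer of procollagen C-proteinase, fell in both lines that expressed an altered phosphofructokinase 2. Frem2, a basement membrane protein, fell in the phosphatase-deficient line. P4ha2, a prolyl 4-hydroxylase subunit, was lower in that line than in the kinase-deficient one, a call lost on omission of any single array. Against wild type, 0.0844% of all probe sets were called in the kinase-deficient line and 2.08% in the phosphatase-deficient line. Between the lines 1.71% were called. A count of 0 among 42 chains is near these shares. The genes were taken by symbol from the annotated expression table: every single symbol of the form Col, number, a, number, and Pcolce, Pcolce2, Lox, Loxl1, Loxl2, P4ha1, P4ha2, Plod1, Plod2, Serpinh1, Bmp1, Frem1 and Frem2. Of the names given singly, Loxl2 was not among the table's single symbols. The 54 genes, 42 of them collagen chains and 12 others, were among 19760 probe sets that carried 1 symbol, of 45037 tested.

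The hearts came from male FVB mice aged 15 weeks, in 3 groups of 3 mice with 1 Affymetrix array per mouse. The WT group was wild type, GlycoLo mice expressed kinase-deficient PFK2 in the heart and GlycoHi mice expressed phosphatase-deficient PFK2 there. PFK2 makes and removes fructose 2,6-bisphosphate, an activator of glycolysis, so the groups ask how the heart's transcripts differ when that control point is set low or high. All hearts were snap-frozen after excision, and no group received a treatment named in the labels. The transgenes' promoter, the founder lines and the litters of the mice are not named in the labels, so p-values measure the spread between these mice. Values are log2 expression summarised by RMA, and a gene counts as called where limma gave an adjusted p under 0.05, with adjustment over all 45037 probe sets.

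The arrays were alike in scale, with medians of 4.76 to 4.80 and correlations between arrays, across probe sets, of 0.994 to 0.997. Pfkfb1, the liver isoform of PFK2, read 7.74 to 7.97 in WT hearts, 14.34 to 14.37 in GlycoLo and 14.40 to 14.43 in GlycoHi, so both transgenic groups stood apart from WT as labelled. The mean log2 value of 12 cardiomyocyte markers was 10.81 to 10.85 in WT, 10.74 to 10.81 in GlycoLo and 10.64 to 10.70 in GlycoHi. Whole heart mixes cardiomyocytes, fibroblasts, endothelial and mural cells, and in such tissue fewer cells of a type and less RNA per cell cannot be told apart.

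Collagens are secreted proteins of coiled chains that give the heart its tensile frame. Cardiac fibroblasts make most of the fibril-forming chains, while type IV chains form the basement membranes that wrap cardiomyocytes and capillaries. New chains are hydroxylated on proline and lysine and folded with the chaperone HSP47 in the endoplasmic reticulum, then trimmed of their propeptides outside the cell by proteinases such as BMP1, and finally cross-linked by lysyl oxidases.

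Removal of the C-terminal propeptide, the step that lets fibrillar collagen assemble, was represented by 3 genes, and Pcolce was the one called. Its protein binds the C-propeptide of procollagen and speeds its cleavage by BMP1. Pcolce (probe set 1437165_a_at) read 9.95, 9.66 and 9.76 in the WT hearts, 9.07, 8.97 and 8.92 in GlycoLo and 8.90, 8.95 and 8.85 in GlycoHi. All 6 transgenic hearts lay below all 3 WT hearts, and GlycoLo overlapped GlycoHi. The mean fell by 0.80 ± 0.08 (SE) in GlycoLo, a 1.74-fold difference (adjusted p = 0.00522), and by 0.89 ± 0.08 in GlycoHi, or 1.85-fold (adjusted p = 0.000283). Both comparisons used the same WT arrays. GlycoHi differed from GlycoLo by -0.09, with a 95% interval of -0.27 to 0.09 (adjusted p = 0.712). Pcolce was the 1 called of the 54 genes in GlycoLo against WT, where 0.0844% of all probe sets were called, 0.0688% lower and 0.0155% higher. With only the 6 arrays of GlycoLo and WT in the fit its adjusted p was 0.0523, and it kept its call on omission of any single array (adjusted p up to 0.0475).

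Pcolce2, a related C-proteinase enhancer, read 8.41, 8.60 and 8.44 in WT, 8.26, 8.13 and 8.29 in GlycoLo and 8.18, 8.17 and 8.24 in GlycoHi. Its transgenic hearts also lay below every WT heart, but it was not called: the differences from WT were -0.25 ± 0.07 (adjusted p = 0.290) and -0.29 ± 0.07 (adjusted p = 0.0864). Bmp1, the C-proteinase itself, was dimmer, at the 34.8th percentile in WT. It read 3.71 to 3.95 in WT, 4.11 ± 0.14 (SD, n = 3) in GlycoLo and 3.95 ± 0.07 in GlycoHi, with every GlycoLo heart above WT. Its differences were 0.27 ± 0.09 and 0.11 ± 0.09 and neither was called. The 3 genes of this step thus held 1 called gene.

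The stretches of 250 bases before the annotated starts of Pcolce, Pcolce2 and Frem2 are given because Pcolce and Frem2 carried the calls against WT and Pcolce2 is the related enhancer (RefSeq, GRCm38.p6, on the gene's strand). They lie at chr5:137611405-137611654 on the minus strand, chr9:95637378-95637627 on the plus strand and chr3:53657356-53657605 on the minus strand. Capitals mark matches, on either strand, to the TATA box TATAAA, the CCAAT box written CCAAT, the GC box GGGCGG, the E-box CACGTG and the AP-1 motif TGANTCA, and no matches overlapped.
Pcolce: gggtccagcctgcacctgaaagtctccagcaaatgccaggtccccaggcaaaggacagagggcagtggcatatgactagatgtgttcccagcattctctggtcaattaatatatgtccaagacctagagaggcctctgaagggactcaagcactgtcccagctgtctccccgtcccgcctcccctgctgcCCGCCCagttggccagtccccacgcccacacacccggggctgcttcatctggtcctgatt
Pcolce2: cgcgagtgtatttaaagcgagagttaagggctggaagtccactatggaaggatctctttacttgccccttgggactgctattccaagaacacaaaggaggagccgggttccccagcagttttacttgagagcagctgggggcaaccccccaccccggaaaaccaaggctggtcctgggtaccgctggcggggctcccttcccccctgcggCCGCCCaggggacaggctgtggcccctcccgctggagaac
Frem2: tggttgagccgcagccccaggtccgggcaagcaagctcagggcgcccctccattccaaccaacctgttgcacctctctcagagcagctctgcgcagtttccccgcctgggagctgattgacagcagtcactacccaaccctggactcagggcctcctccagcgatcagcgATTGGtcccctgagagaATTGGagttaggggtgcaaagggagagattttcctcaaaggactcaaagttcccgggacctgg
Pcolce and Pcolce2 each held 1 GGGCGG match, with first bases 60 and 40 bases before the start, and this motif was in 32.7% of 32851 such stretches. Frem2 held 2 CCAAT matches, 80 and 63 bases before the start, and 33.8% of the stretches held at least 1. No match to TATAAA (in 12.4% of all stretches), to CACGTG (6.02%) or to TGANTCA (6.75%) was found in these windows. The G and C content was 58.8% for Pcolce, 61.2% for Pcolce2 and 59.6% for Frem2, against a median of 52.4%.

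**Figure D1:**
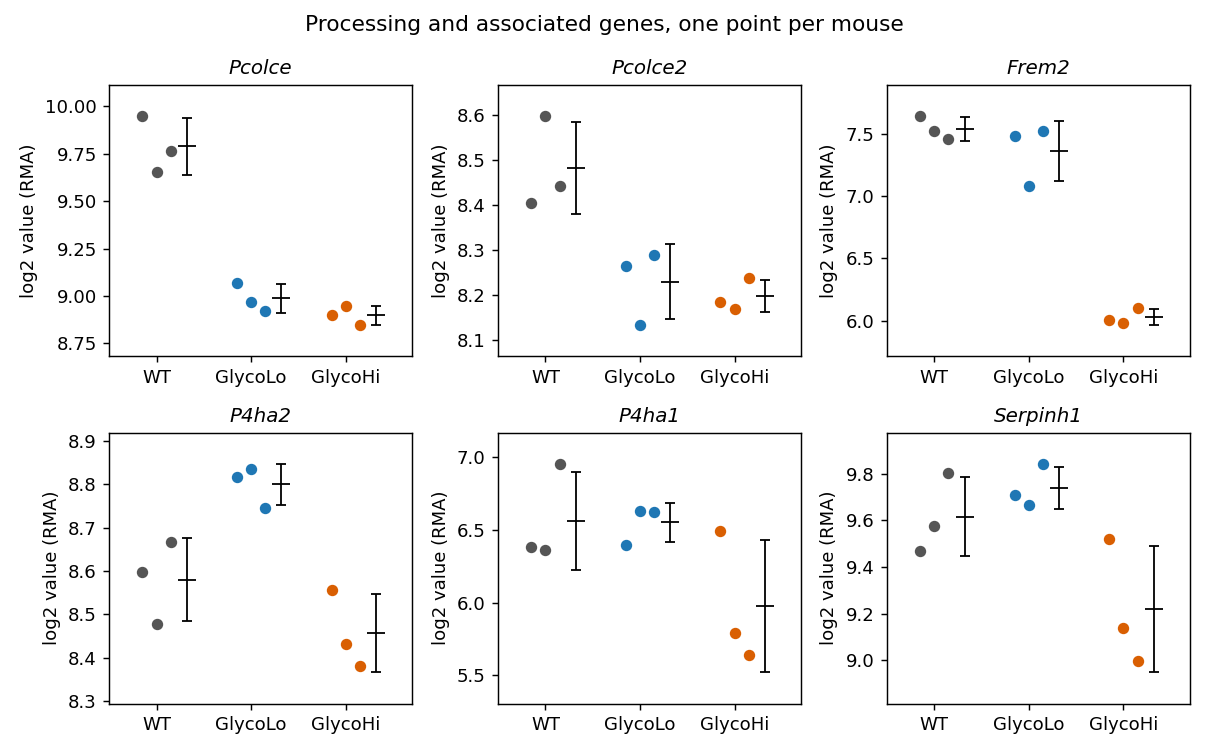
Log2 RMA value (vertical axis) of 6 processing and associated genes by group (horizontal axis), 1 point per mouse, with the mean and SD of 3 mice beside each group. Pcolce and Pcolce2 lie lower in both transgenic groups than in WT, Frem2 lies lower in GlycoHi, and for P4ha1 and Serpinh1 GlycoHi replicate 1 lies above the other two GlycoHi mice.

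Frem2 showed the largest difference of the 54 genes, and it was in GlycoHi hearts. FREM2 and FREM1 form a complex with FRAS1 that anchors epithelial basement membranes in the embryo. Frem2 (probe set 1457038_at) read 7.64, 7.52 and 7.45 in WT, 7.48, 7.08 and 7.52 in GlycoLo and 6.01, 5.99 and 6.10 in GlycoHi. The 3 GlycoHi hearts lay below every other heart, whereas GlycoLo overlapped WT. Frem2 fell by 1.51 ± 0.11 in GlycoHi against WT, a 2.84-fold difference (adjusted p = 5.7e-05), and by 1.33 ± 0.11 against GlycoLo, 2.51-fold (adjusted p = 0.000142). In GlycoLo against WT the difference was -0.18, with a 95% interval of -0.42 to 0.07 (adjusted p = 0.652). The calls held under every alternative tried, with adjusted p no higher than 9e-04 against WT and 0.00242 against GlycoLo.

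The partners of FREM2 were not called in any comparison. Frem1 read 2.44 to 3.04 over the 9 arrays, a dim signal at the 12.5th percentile in WT, and differed by 0.11 ± 0.11 in GlycoHi against WT (adjusted p = 0.697). Fras1 read 4.87 to 5.16 in WT, 5.16 to 5.56 in GlycoLo and 4.95 to 5.28 in GlycoHi, so its groups overlapped. Grip1, an adaptor that carries FRAS1 and FREM2 to the cell surface, and Npnt and Itga8, a matrix ligand and the integrin chain that binds it, made up the rest of a list of 4 genes measured. None of the 4 was called, and their median differences were -0.10 in GlycoLo and -0.06 in GlycoHi against WT. Of all probe sets 0.0844% were called in GlycoLo against WT, 2.08% in GlycoHi against WT and 1.71% between the lines. At these shares, no call among so few genes does not show that the partners were unchanged.

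With Pcolce and Frem2, 2 of the 54 genes fell in GlycoHi against WT and 0 rose, where 2.08% of all probe sets were called, 1.00% lower and 1.08% higher. Omission of GlycoHi replicate 1 raised the count from 2 to 6, all lower, the additions being Col4a3, Col8a1, P4ha1 and Serpinh1. The share of all probe sets called in that fit is not given here, so the rise has no background beside it. In GlycoHi against GlycoLo, Frem2 and P4ha2 were lower and 0 were higher, where 1.71% of all probe sets were called, 0.755% lower and 0.957% higher. The authors' deposited table gave an adjusted p-value under 0.05 to the same genes in each comparison, Pcolce in GlycoLo, Frem2 and Pcolce in GlycoHi, and Frem2 and P4ha2 between the lines.

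Among 5 genes that modify or fold the chains before secretion, P4ha2 was called between the lines. It encodes a catalytic subunit of prolyl 4-hydroxylase, whose product steadies the collagen helix. P4ha2 read 8.60, 8.48 and 8.67 in WT, 8.82, 8.84 and 8.75 in GlycoLo and 8.56, 8.43 and 8.38 in GlycoHi. The GlycoLo hearts were above all WT and GlycoHi hearts, and GlycoHi overlapped WT. GlycoHi was lower than GlycoLo, with a log2 difference of -0.34 ± 0.07, or 1.27-fold (adjusted p = 0.0476). Against WT the differences were 0.22 ± 0.07 in GlycoLo (adjusted p = 0.370) and -0.12 ± 0.07 in GlycoHi (adjusted p = 0.495), neither called. The call between the lines was lost on omission of any single array (adjusted p from 0.0537 to 0.170).

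P4ha1, the other subunit gene among the 54, and Serpinh1, which encodes HSP47, had their lowest values in the same mice. P4ha1 read 6.38, 6.36 and 6.95 in WT, 6.40, 6.63 and 6.62 in GlycoLo and 6.49, 5.79 and 5.64 in GlycoHi. Serpinh1 read 9.47, 9.58 and 9.80 in WT, 9.71, 9.67 and 9.84 in GlycoLo and 9.52, 9.14 and 8.997 in GlycoHi. For both, GlycoHi replicates 2 and 3 lay below every other heart and GlycoHi replicate 1 lay within the WT range. P4ha1 had the widest spread within groups of the 54 genes, with a pooled SD of 0.335 against a median of 0.132 over the 54 and 0.109 over all probe sets.

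Neither gene was called with all 9 arrays. In GlycoHi against WT the difference was -0.59 ± 0.21 for P4ha1 (adjusted p = 0.221) and -0.40 ± 0.13 for Serpinh1 (adjusted p = 0.179). Without GlycoHi replicate 1, the highest GlycoHi value for both, these became -0.85 (adjusted p = 0.0478) and -0.55 (adjusted p = 0.0461). Other omissions gave adjusted p up to 0.499 for P4ha1 and 0.418 for Serpinh1, and each gained a call under 1 of 17 alternatives. Serpinh1 differed between the lines by -0.52 ± 0.13 (adjusted p = 0.0873). That difference was -0.67 without GlycoHi replicate 1 (adjusted p = 0.0194), and other omissions gave adjusted p up to 0.266. What sets this mouse apart from the other two was not tested. The lysyl hydroxylase genes Plod1 and Plod2 read 4.99 to 5.35 and 6.55 to 7.01 and differed from WT by -0.15 to 0.15, with none called. All 5 modification genes had lower means in GlycoHi than in GlycoLo, with log2 differences of -0.58 to -0.16 and a median of -0.34 beside -0.003 over all probe sets. Only P4ha2 of them passed the test.

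The cross-linking enzymes did not pass the test in any comparison. Lox, lysyl oxidase, read 2.53 to 3.09 and stood at the 9.30th percentile in WT, near the bottom of the scale. Loxl1, a lysyl oxidase that acts on elastin, read 5.15 to 5.55 in WT, 5.24 to 5.71 in GlycoLo and 5.14 to 5.50 in GlycoHi. Its difference from WT was 0.10 ± 0.14 in GlycoLo and -0.01 ± 0.14 in GlycoHi.

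Of the 42 collagen chains 0 were called by limma in each of the 3 comparisons. Over all probe sets 0.0844% were called in GlycoLo against WT, 2.08% in GlycoHi against WT and 1.71% between the lines. A count of 0 among 42 is near these shares. At an unadjusted p under 0.05 there were 8 in GlycoLo against WT, 9 in GlycoHi against WT and 4 between the lines, where 9.48%, 14.5% and 12.9% of all probe sets met that threshold. The median difference was -0.05 in GlycoLo, -0.06 in GlycoHi and -0.02 between the lines, beside 0.01, 0.0002 and -0.003 over all probe sets. The 95% intervals, unadjusted for the number of genes, reached from -0.52 to 0.45 over the chains in GlycoLo, from -0.74 to 0.54 in GlycoHi and from -0.68 to 0.50 between the lines. No interval thus held a difference of 1 in either direction. A filter on the dimmest 20% of probe sets kept 37 of the 42 chains, and 47 of the 54 genes.

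Some chains had groups that did not overlap. In GlycoLo 7 of the 42 chains (16.7%) lay wholly below WT and 3 (7.14%) wholly above, where 6.29% and 6.90% of all probe sets did so. In GlycoHi 9 (21.4%) lay below and 3 (7.14%) above, beside 8.49% and 9.68%. Between the lines 3 (7.14%) lay below and 1 (2.38%) above, beside 8.01% and 8.76%. Both lines were set against the same WT arrays, and chains measured in the same hearts are not independent. Array by array, the median deviation of the 42 chains from the WT mean was -0.04, 0.02 and -0.01 in WT, -0.07, -0.05 and -0.03 in GlycoLo and -0.13, -0.04 and -0.07 in GlycoHi, so each line had 1 heart above the lowest WT heart.

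**Figure D2:**
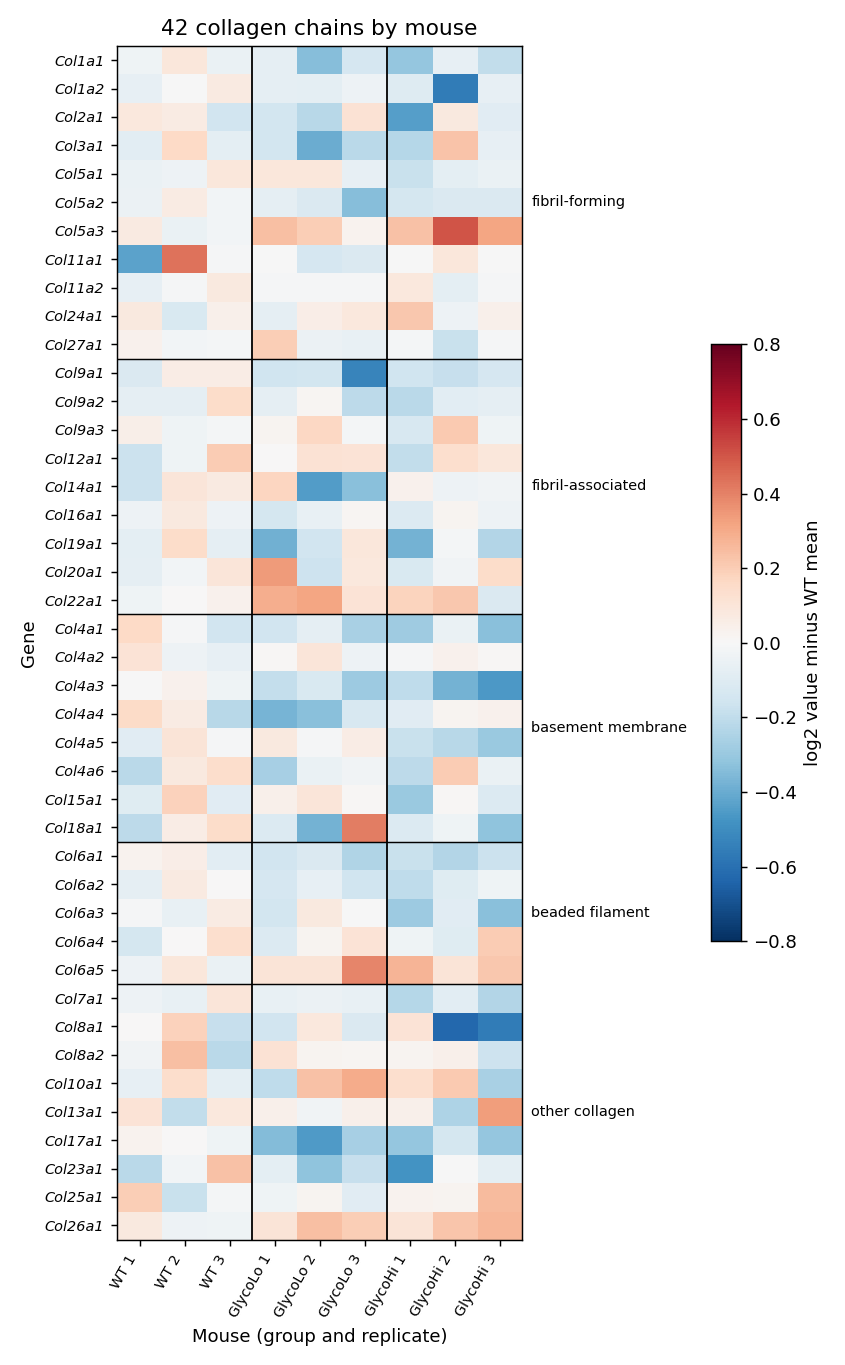
Log2 value minus the WT mean for each of the 42 collagen chains (rows, ordered by class) in each of the 9 mice (columns), in red where higher and blue where lower. The deviations run from -0.629 to 0.503, on a colour scale that is the same for all chains.

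The 11 fibril-forming chains make up the cross-striated fibres of the interstitium, and 0 were called. Col1a1, a chain of type I collagen, read 7.01, 7.14 and 6.99 in WT, 6.97, 6.71 and 6.91 in GlycoLo and 6.74, 6.98 and 6.85 in GlycoHi. Every transgenic heart was below every WT heart, by little: the differences were -0.18 ± 0.09 (adjusted p = 0.570) and -0.19 ± 0.09 (adjusted p = 0.363). Col3a1, which forms fibres with type I, read 7.39, 7.63 and 7.40 in WT, 7.33, 7.08 and 7.26 in GlycoLo and 7.24, 7.70 and 7.41 in GlycoHi. It lay below WT in GlycoLo (-0.25 ± 0.12, adjusted p = 0.546) and overlapped WT in GlycoHi (-0.02 ± 0.12, adjusted p = 0.960). Col1a2, the partner chain of Col1a1, is represented by a probe set that read 2.85 to 3.48, at the 25.7th percentile in WT, so its differences carry the limits of a dim signal.

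Type V chains start fibrils and set their width, and they differed in sign. Col5a3 read 5.70, 5.57 and 5.60 in WT, 5.87, 5.82 and 5.65 in GlycoLo and 5.86, 6.13 and 5.94 in GlycoHi. All GlycoHi hearts were above all WT hearts, by 0.35 ± 0.09, which was not called (adjusted p = 0.0736). Col5a2 stood at -0.18 ± 0.08 in GlycoLo and -0.12 ± 0.08 in GlycoHi with non-overlapping groups in both, and Col5a1 at 0.04 ± 0.07 and -0.10 ± 0.07, none called. Col11a1, a minor fibril component of cartilage, read 2.81 to 3.67 within WT alone. The rest of this class, Col2a1, Col11a2, Col24a1 and Col27a1, overlapped WT in both lines. Col24a1 was the dimmest of the 54 probe sets, in the 1.07th percentile.

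The 8 chains of basement membranes included the brightest collagen probe sets, those of Col4a1 and Col4a2, and none was called. These paired chains form the common type IV network and their genes are neighbours. Col4a1 read 10.84, 10.68 and 10.53 in WT, 10.53, 10.61 and 10.42 in GlycoLo and 10.40, 10.63 and 10.35 in GlycoHi, and Col4a2 read 10.23 to 10.40 over all 9 hearts. Col4a1 differed by -0.16 ± 0.10 and -0.22 ± 0.10, and Col4a2 by 0.02 ± 0.07 and 0.01 ± 0.07. The groups overlapped for both.

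Col4a3, Col4a4 and Col4a5 encode the chains of a specialised network known from kidney, and Col4a3 came nearest to a call among the collagens. It read 4.47, 4.51 and 4.44 in WT, 4.28, 4.35 and 4.18 in GlycoLo and 4.26, 4.09 and 4.01 in GlycoHi. Every transgenic heart lay below every WT heart, with differences of -0.20 ± 0.08 (adjusted p = 0.459) and -0.35 ± 0.08 (adjusted p = 0.0524). The GlycoHi difference passed the threshold under 4 of 17 alternatives, with adjusted p from 0.0339 to 0.166 over all of them. Col4a5 read 7.18, 7.38 and 7.26 in WT, 7.35, 7.27 and 7.33 in GlycoLo and 7.09, 7.05 and 6.98 in GlycoHi. It was lower in every GlycoHi heart than in any other (-0.23 ± 0.07 against WT, adjusted p = 0.140, and -0.28 ± 0.07 against GlycoLo, adjusted p = 0.0923). Col4a4, the neighbour of Col4a3, instead had its lower values in GlycoLo (-0.28 ± 0.10, adjusted p = 0.425) and stood at -0.01 ± 0.10 in GlycoHi. Col4a6, Col15a1 and Col18a1 differed from WT by -0.16 to 0.05.

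Type VI collagen forms beaded filaments beside basement membranes, and its 3 classical chains all had lower means in GlycoHi. Col6a1 read 8.56, 8.58 and 8.45 in WT, 8.38, 8.41 and 8.29 in GlycoLo and 8.36, 8.30 and 8.36 in GlycoHi, so both lines lay below WT. Its differences were -0.17 ± 0.07 (adjusted p = 0.448) and -0.19 ± 0.07 (adjusted p = 0.195). Col6a2 stood at -0.12 ± 0.07 and -0.11 ± 0.07, with its probe set marked as open to cross-hybridisation by its suffix. Col6a3 stood at -0.02 ± 0.09 in GlycoLo and -0.24 ± 0.09 in GlycoHi (adjusted p = 0.220), where all GlycoHi hearts were below WT. Col6a5 stood at 0.20 ± 0.09 in each line, on a probe set in the 1.20th percentile.

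None of the 9 fibril-associated and 9 remaining chains was called, and some had groups that did not overlap WT. In GlycoLo 1 of each 9 (11.1%) lay wholly below WT and 1 of each 9 wholly above, beside 6.29% and 6.90% of all probe sets. In GlycoHi 1 fibril-associated chain (11.1%) and 2 of the rest (22.2%) lay below and 1 of the rest (11.1%) above, beside 8.49% and 9.68%. A count of 1 in 9 is near these shares. Among 9 fibril-associated chains, which coat fibrils without forming them, Col9a1 differed by -0.28 ± 0.10 in GlycoLo (adjusted p = 0.412) and Col22a1, a collagen of muscle-tendon junctions, by 0.24 ± 0.09 (adjusted p = 0.459). Col17a1, a transmembrane collagen of skin hemidesmosomes, had the smallest p of the chains in GlycoLo. It read 2.97, 2.94 and 2.91 in WT, 2.59, 2.49 and 2.67 in GlycoLo and 2.63, 2.80 and 2.63 in GlycoHi, below WT in every transgenic heart (-0.36 ± 0.07, adjusted p = 0.144, and -0.25 ± 0.07, adjusted p = 0.126). At the 14.0th percentile of the array these values lie near the bottom of the scale. Col26a1 lay above WT in both lines, by 0.18 ± 0.07 in GlycoLo (adjusted p = 0.466) and 0.20 ± 0.07 in GlycoHi (adjusted p = 0.230), and Col7a1, the collagen of anchoring fibrils, lay below WT in GlycoHi (-0.18 ± 0.07, adjusted p = 0.251). Col9a3, also among the dimmest probe sets, stood at 0.06 ± 0.09 and 0.02 ± 0.09. Col8a1, a short-chain collagen of vessels, read 4.99, 4.25 and 4.32 in GlycoHi, with replicate 1 within the WT range of 4.70 to 5.06. It differed by -0.36 ± 0.17 (adjusted p = 0.378), and by -0.59 without that mouse (adjusted p = 0.0422). Under no other alternative was Col8a1 called.

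**Figure D3:**
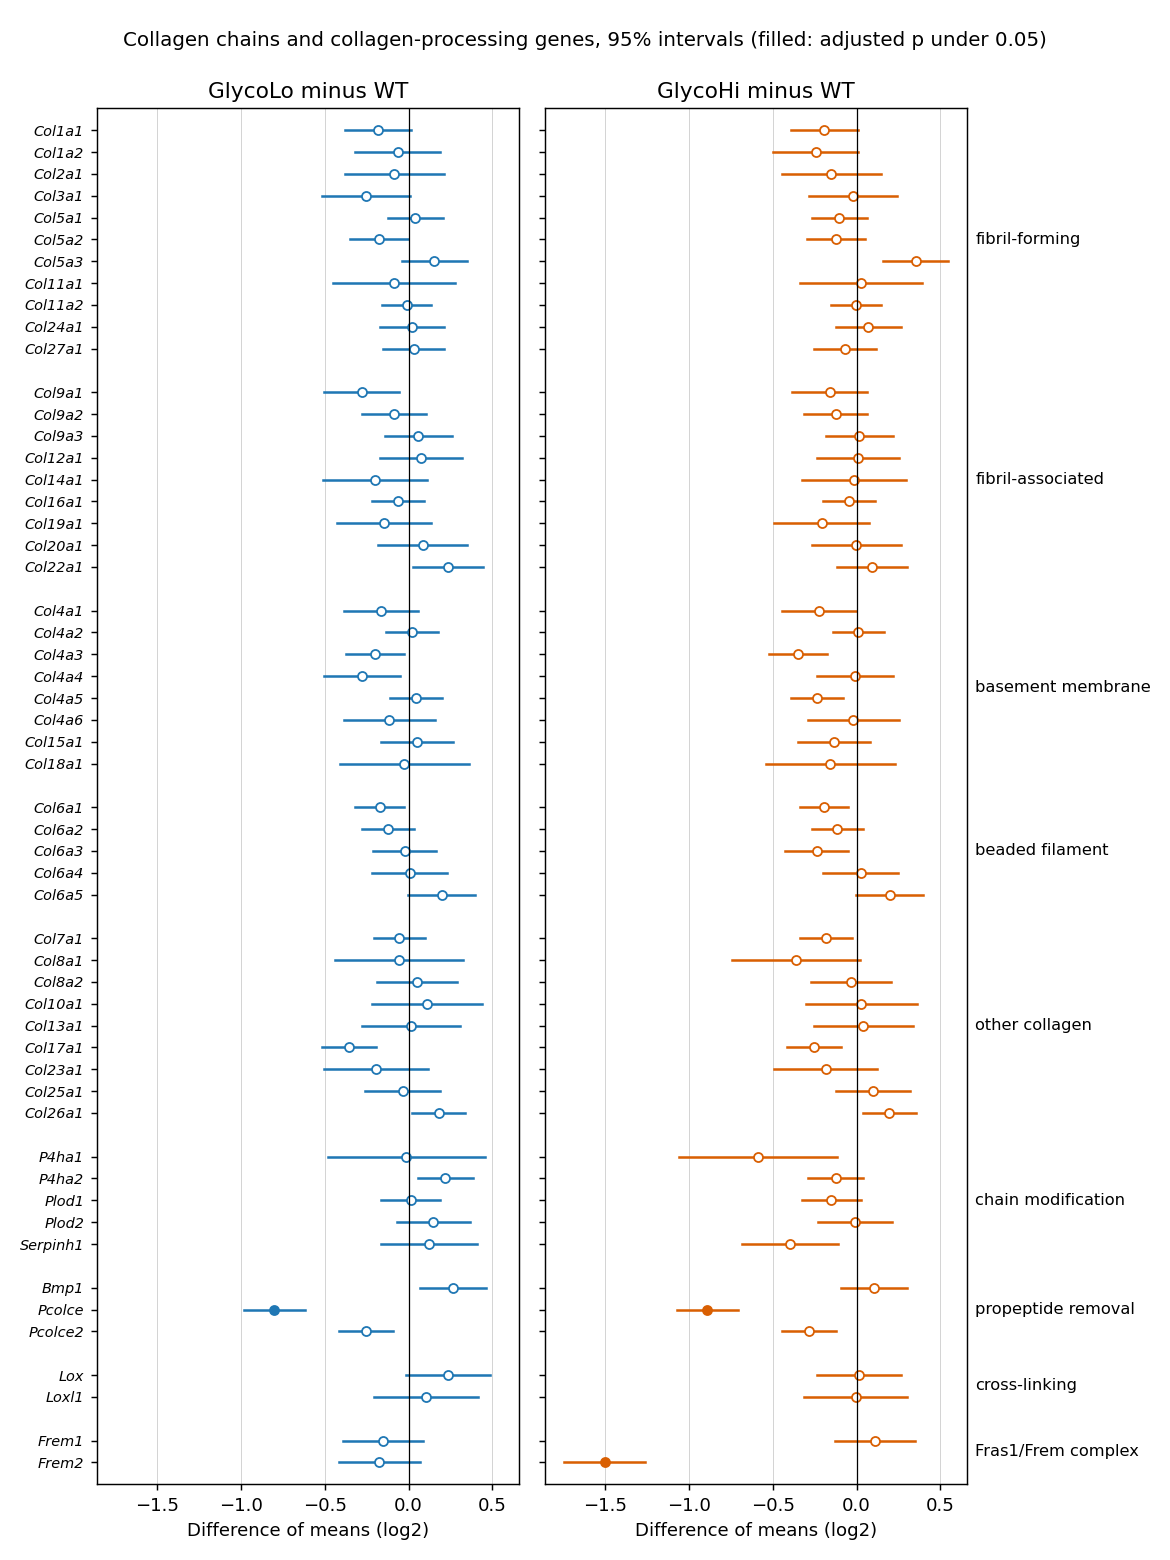
Difference of group means from WT on the log2 scale (horizontal axis) for all 54 genes (vertical axis, by class), in GlycoLo (left) and GlycoHi (right), with 95% intervals from limma unadjusted for the number of genes. Filled points, Pcolce in both panels and Frem2 in GlycoHi, had an adjusted p under 0.05.

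Other genes of collagen maturation were read from a list of 30 symbols, of which 22 were measured. P3h4 encodes a protein of the endoplasmic reticulum complex that governs lysine hydroxylation of collagen, and Fkbp10 a prolyl isomerase that acts on procollagen there. The genes are neighbours, with 0 protein-coding genes between them in the RefSeq gene table. P3h4 read 7.94, 7.68 and 7.76 in WT, 7.24, 7.16 and 7.28 in GlycoLo and 7.69, 7.84 and 7.69 in GlycoHi. Fkbp10 read 6.05, 6.12 and 6.21 in WT, 5.71, 5.69 and 5.73 in GlycoLo and 6.06, 6.04 and 6.31 in GlycoHi. For both, the GlycoLo hearts were below all others and GlycoHi overlapped WT.

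P3h4 fell by 0.57 ± 0.08 in GlycoLo against WT (adjusted p = 0.0384) and was higher by 0.51 ± 0.08 in GlycoHi than in GlycoLo (adjusted p = 0.00996). Its call against WT was lost on omission of any single array other than GlycoHi replicate 2 (adjusted p up to 0.147), whereas its call between the lines held on each omission (adjusted p up to 0.0476). Fkbp10 was higher by 0.43 ± 0.08 in GlycoHi than in GlycoLo (adjusted p = 0.0295), a call lost without WT replicate 2, any GlycoLo array or GlycoHi replicate 1 or 3 (up to 0.0973). Against WT its GlycoLo difference was -0.42 ± 0.08 and was not called (adjusted p = 0.124). Sparc, a collagen-binding matrix protein, read 10.73 to 10.80 in WT, 10.53 to 10.57 in GlycoLo and 10.35 to 10.53 in GlycoHi. It fell in GlycoHi by 0.35 ± 0.07 (adjusted p = 0.0246), a call lost without any WT array or GlycoHi replicate 1 or 3 (up to 0.0906). Of the 22 genes 1 fell and 0 rose in GlycoLo, 1 fell and 0 rose in GlycoHi, and 2 were higher and 0 lower between the lines, where 0.0844%, 2.08% and 1.71% of all probe sets were called, the medians being -0.03, -0.03 and 0.0008.

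The non-collagen matrix held 1 called gene among the basement membrane partners and 2 among the glycoproteins. Of those 2, 1 was called in GlycoHi against WT and 1 between the lines. Of all probe sets 0.0844% were called in GlycoLo against WT, 2.08% in GlycoHi against WT and 1.71% between the lines. A count of 1 in 37 is near the last 2 shares, and 1 call in a list as short as 16 does not set it apart. Of 16 basement membrane partners Nid1, nidogen, which links laminin to type IV collagen, fell by 0.39 ± 0.06 in GlycoHi (adjusted p = 0.0104) from 7.43, 7.45 and 7.45 to 7.08, 6.99 and 7.08, and 15 were not called. The GlycoLo values of Nid1, 7.32, 7.35 and 7.22, also lay below every WT heart, with a difference of -0.15 that was not called (adjusted p = 0.508). GlycoHi differed from GlycoLo by -0.25, also not called (adjusted p = 0.0996). Of these 16 partners 7 had an unadjusted p under 0.05 in GlycoHi against WT, where 14.5% of all probe sets did, and 6 (37.5%) lay wholly below WT and 2 (12.5%) wholly above, beside 8.49% and 9.68%. In GlycoLo 1 of the 16 had an unadjusted p under 0.05, beside 9.48%, and between the lines 6 did, beside 12.9%. Of 37 matrix glycoproteins and proteoglycans, 7, 5 and 3 had an unadjusted p under 0.05 in GlycoLo, in GlycoHi and between the lines. Among them Thbs4, a thrombospondin of strained muscle and tendon, rose in GlycoHi by 0.64 ± 0.08 (adjusted p = 0.00176), from 7.20, 7.33 and 7.10 to 7.95, 7.78 and 7.81. Its GlycoLo values of 7.49 to 7.54 also lay above WT, by 0.31 ± 0.08, which was not called (adjusted p = 0.205). Thbs2 was higher in GlycoHi than in GlycoLo by 0.53 ± 0.11 (adjusted p = 0.0475). That call was lost under 12 of 17 alternatives, among them omission of any array except GlycoLo replicate 1 (up to 0.175). The Thbs2 probe set, like that of Col6a2, is marked as open to cross-hybridisation by its suffix. The calls of Nid1 and Thbs4 against WT held on each omission (adjusted p up to 0.0491 and 0.0104).

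**Figure D4:**
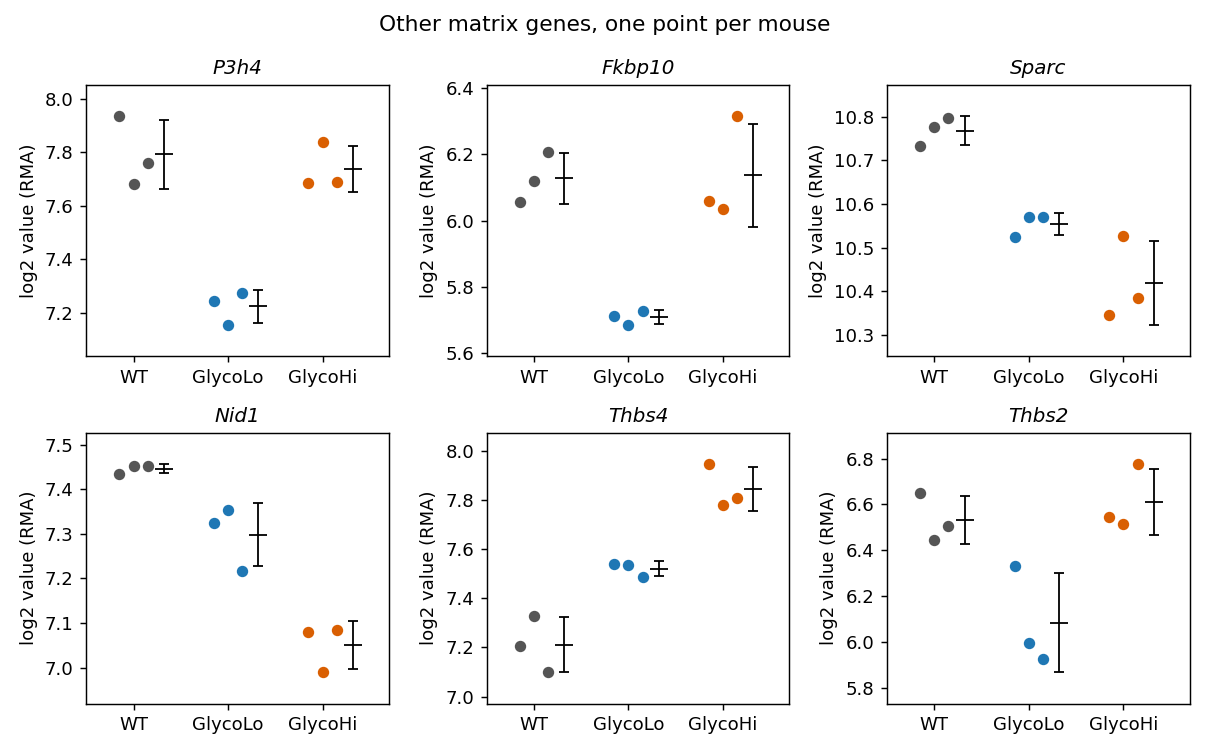
Log2 RMA value (vertical axis) of 6 other matrix genes by group (horizontal axis), 1 point per mouse, with the mean and SD of 3 mice beside each group. P3h4 and Fkbp10 lie lowest in GlycoLo, Sparc and Nid1 lie lower in GlycoHi than in WT, and Thbs4 lies higher in GlycoHi than in WT.

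None of 20 collagen-degrading proteases and their inhibitors and none of 9 collagen receptors was called in any comparison by limma. Of all probe sets 0.0844%, 2.08% and 1.71% were called in GlycoLo, in GlycoHi and between the lines. Counts of 0 in 20 and 0 in 9 are near these shares. At an unadjusted p under 0.05 there were 1, 3 and 4 of the proteases and inhibitors in GlycoLo, in GlycoHi and between the lines, and 1, 2 and 1 of the receptors, where 9.48%, 14.5% and 12.9% of all probe sets met that threshold. Ctsk, the collagen-cutting cathepsin K, stood nearest at 0.32 ± 0.07 in GlycoHi (adjusted p = 0.0603), and Itgb1, the shared chain of collagen-binding integrins, at -0.35 ± 0.08 (adjusted p = 0.0578). Of 30 genes of TGF-beta signalling and fibrosis regulation Srf, a transcription factor of contractile genes, rose in GlycoHi by 0.30 ± 0.07 (adjusted p = 0.0498). That call was lost on omission of any single array (up to 0.155). It was the 1 call among the 30 in GlycoHi against WT, where 2.08% of all probe sets were called. Srf also lay above WT in every GlycoLo heart (7.97 to 8.09 beside 7.70 to 7.77), by 0.30, which was not called (adjusted p = 0.156). GlycoHi differed from GlycoLo by -0.007 (adjusted p = 0.980). At an unadjusted p under 0.05 there were 6, 7 and 7 of the 30, and the list's medians were -0.02 in GlycoLo and -0.12 in GlycoHi.

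Fibroblasts are the main source of fibrillar collagen, and none of their markers was called other than Thbs4. Over all probe sets 0.0844% were called in GlycoLo against WT, 2.08% in GlycoHi against WT and 1.71% between the lines. At these shares, few calls in short lists do not show that fibroblasts were unchanged. Over 12 fibroblast markers other than collagens the mean log2 value was 7.94 to 8.02 in WT, 7.91 to 7.95 in GlycoLo and 7.87 to 7.92 in GlycoHi, with 10 of 12 below WT in each line (medians -0.06 and -0.12) and 0 called. Dcn, decorin, read 12.66 to 12.84 over the 9 hearts. Activated fibroblast markers, 9 in number, had mean values of 5.44 to 5.57 in WT, 5.48 to 5.55 in GlycoLo and 5.51 to 5.53 in GlycoHi, and Thbs4 was the 1 called. Postn, periostin, read 9.44 to 9.77 over all hearts.

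Of the lists for other cell types, those of mural, endocardial and cardiomyocyte genes each held 1 gene called in GlycoHi against WT, where 2.08% of all probe sets were called. Epicardial and mesothelial markers had medians of -0.24 in GlycoLo and -0.32 in GlycoHi over 8 genes with 0 called, and mean values of 5.18 to 5.55 in WT, 5.03 to 5.21 in GlycoLo and 4.96 to 5.17 in GlycoHi. White adipocyte markers had medians of -0.22 and -0.28 over 7 genes with 0 called, and mean values of 4.96 to 5.85, 4.69 to 5.16 and 4.64 to 4.91. In GlycoHi 5 of these 7 (71.4%) lay wholly below WT, where 8.49% of all probe sets did, and 5 had an unadjusted p under 0.05, beside 14.5%. Of the epicardial genes 2 of 8 (25.0%) lay wholly below WT in GlycoHi, and of the cardiomyocyte genes 5 of 12 (41.7%). Endothelial markers stood at -0.12 and -0.14 over 11 genes with 0 called (7.74 to 7.88, 7.69 to 7.75 and 7.61 to 7.68), and smooth muscle and pericyte markers at -0.06 and -0.21 over 10 genes (8.16 to 8.26, 8.07 to 8.29 and 7.98 to 8.05). Of the last list Rgs5, a pericyte gene, fell in GlycoHi by 0.65 ± 0.14 (adjusted p = 0.0392), a call lost without any WT or GlycoHi array or GlycoLo replicate 1 (up to 0.134). Endocardial markers had medians of -0.03 and -0.11 over 5 genes (5.40 to 5.48, 5.24 to 5.39 and 5.28 to 5.31), and Npr3 fell in GlycoHi by 0.69 ± 0.15 (adjusted p = 0.0456), a call lost without any WT or GlycoHi array or GlycoLo replicate 2 (up to 0.159). Macrophage, Schwann, valve and erythroid lists held 0 called genes, with medians of -0.17 to -0.02 in GlycoLo and -0.11 to -0.04 in GlycoHi. Myh6, the main adult myosin heavy chain, fell in GlycoHi by 0.70 ± 0.10 and was the 1 cardiomyocyte marker called against WT (adjusted p = 0.00444). It was also called lower in GlycoHi than in GlycoLo, by 0.47 (adjusted p = 0.0421), where 1.71% of all probe sets were called. That second call was lost under 9 of 17 alternatives. The part of these cell types in the differences of Pcolce, Frem2 and the collagens was not tested.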

How the data were processed

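Whole-heart RNA of 9 mice was hybridised to an Affymetrix mouse genome array, 1 array per mouse. The authors deposited log2 values per probe set, made with RMA per the submitters' processing notes, with settings not given in the sources used here. The annotated table the authors deposited adds symbols, a log2 difference, p-value and adjusted p-value per comparison, and per-array values equal to the value table; the same notes name limma. Its SD column was not used. The 64 control probe sets of 45101 were left out. Each symbol stands for 1 listed probe set; all 54 symbols are current in RefSeq GRCm38.p6, and other probe sets of these genes are unnamed here.

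A linear model of genotype was fitted to all 9 arrays with limma 3.58.1 in R 4.3.3 (empirical Bayes, 6 residual and 4.66 prior degrees of freedom). P-values were adjusted by Benjamini-Hochberg over 45037 probe sets. Errors are the model's SE unless named SD. An exact permutation test of 3 mice against 3 cannot go below p = 0.1. RMA often gave exactly equal values on several arrays: 23 of the 54 genes (60.2% of all probe sets) had at least 2 equal arrays, so some SDs are small. The number of arrays limits the precision.

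The genes and lists were chosen with earlier results of these data known. Named were called genes, the 6 smallest p per comparison, the main fibrillar, basement membrane and type VI chains, all processing genes, and the 10 brightest and 5 dimmest in WT; from other lists, called genes and others among the 3 smallest p. Fras1, Grip1, Npnt, Itga8, Dcn, Postn, Col22a1, Col8a1, Col26a1, Col7a1, Col2a1, Col11a2 and Col27a1 fall outside this rule and were chosen after their values were seen. Steps were tested on simulated data. The fit was repeated with each array left out, with a replicate block, with array weights, with only the arrays compared, without the dimmest 20% of probe sets, after cyclic loess, after setting a common median, with 50 added on the linear scale, and with a robust, trended prior variance. Sequence windows used Python 3.11.15 and pandas 2.3.3, and figures matplotlib 3.10.9.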

Additional observations from a re-analysis of the deposited data

How the results depend on the processing

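The median log2 difference of the 54 genes stayed below 0 in all 3 comparisons under the 17 alternatives, but its size moved by more than the spread of array medians within groups (SD 0.0303) under some. In GlycoHi against WT it was -0.0851 with all arrays and -0.0292 with an offset of 50. It was -0.122 without the dim probe sets, there as a median over only the 47 genes kept. Omissions gave -0.120 (without WT replicate 1) to -0.0539 (without GlycoHi replicate 1). Between the lines it was -0.0601, with an offset of 50 it was -0.0151, and omissions gave -0.0767 to -0.0247, the last without GlycoHi replicate 1. In GlycoLo against WT it was -0.0244 and omissions gave -0.0513 to -0.0138. In GlycoLo against WT 1 gene, Pcolce, was called, and 0 with only the 6 arrays compared; omissions gave 1 to 1. In GlycoHi against WT 2 were called, but 4 with an offset of 50 and 4 with a trended and robust variance, and omissions gave 2 to 6, the 6 being without GlycoHi replicate 1. Between the lines 2 were called, but 1 with the replicate block, 1 with only the 6 arrays compared, 1 with a common median, 1 with array weights and 4 with a trended and robust variance, and omissions gave 1 to 2. Each reduction between the lines was the loss of P4ha2; only 6 arrays leave fewer samples, and otherwise the cause was not tested. The shares of all probe sets called under these alternatives are not given here. No called gene reversed direction among 2277 values of 45 named genes, of which 89 lost and 18 gained a call.

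Same-numbered mice deviated together weakly at most: 2 of 9 pairs between groups had a correlation of deviations over 0.1 (range -0.02 to 0.12). Pairs of mice with different numbers had correlations from -0.11 to 0.06. The numbers were not treated as a pairing in the main fit. With the replicate block the counts were 1, 2 and 1, P4ha2 being the call lost. Signal limits the dim genes: 7 of the 54 lay under the 20th percentile of mean signal, at 3.18 on the log2 scale.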
